A study of Mus musculus with 2 samples.

Results

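The cells described here are granzyme-positive CD8 T cells from MC38 tumors, 459 cells of the MWA group and 724 that come from the MWA plus TIGIT group, 1183 of 20407 barcodes in all. They were chosen by raw counts of unique molecular identifiers (UMIs, each marking 1 captured RNA molecule). A member was a barcode with at least 200 detected genes, at most 10% mitochondrial UMIs, at least 2 UMIs of Cd3d, Cd3e and Cd3g together, at least 1 of Cd8a and Cd8b1, none of Cd4 and fewer than 10 of the macrophage genes C1qa, C1qb and C1qc. It also held at least 2 UMIs of Gzma, Gzmb and Gzmk together and was neither cycling (fewer than 2 UMIs of Mki67, Top2a and Birc5) nor interferon-induced (fewer than 3 of Ifit1, Ifit3, Rsad2 and Usp18), and it held fewer than 2 UMIs of the checkpoint receptor genes Pdcd1, Havcr2 and Lag3. The members were thus picked on their own counts, so the level of any of these genes in them is a description and not a result.

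Male C57BL/6 mice, whose age the sample labels do not give, carried an MC38 tumor in each flank. MC38 is a colon carcinoma line of the mouse. In both groups the tumor of the right flank underwent microwave ablation (MWA) at about 300 mm3, and the CD45+ leukocytes of the untouched left tumor were sorted on day 8 and sequenced with the 10x Genomics droplet method. The MWA group received an isotype control antibody by the study's methods, and the MWA plus TIGIT group received an antibody against TIGIT, an inhibitory receptor of T and NK cells, in 3 injections at 3-day intervals starting 1 day after MWA according to the labels. Each group was 1 library, named the MWA library and, for MWA plus TIGIT, the combination library. The number of mice pooled in each is not given in the sources used here, and no library from mice without MWA was analysed here. Cells of a library are not replicates, so no test between the groups was possible. The intervals given are exact 95% intervals, binomial for shares, Poisson for summed UMIs and conditional binomial for ratios. Intervals of differences combine those of both shares, and all cover counting error only, not the spread between mice or libraries.

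CD8 T cells kill target cells by releasing cytotoxic granules. Perforin opens the way into the target and granzymes, a family of serine proteases, trigger its death. Granzyme B is the classical inducer of apoptosis, whereas granzyme A and granzyme K are trypsin-like enzymes carried by different effector subsets. Effector cells also shed the homing program of naive and memory cells, and they acquire chemokine receptors that lead to inflamed tissue and killer cell lectin receptors shared with NK cells.

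The MWA library held 10217 barcodes with a median of 5627 UMIs and the combination library 10190 with a median of 6586, and 10037 and 9913 passed the limits on genes and mitochondrial UMIs. The libraries had 37 barcode sequences in common, and 0 members of the MWA library and 1 of the combination library were among them. Members were shallower than the libraries as a whole, with medians of 3301 and 3431 UMIs and of 1183 and 1264 detected genes. They held 1736388 and 2805068 UMIs in all, and levels are in CPM, for which the UMIs of a gene were divided by the total of the cells they were summed over. Where 2 values are given side by side, the first is that of the MWA library. The doublet caller called 20 and 15 members, which were kept.

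The members were also described by cell type markers, most of which the rule did not use. A UMI of Trac, Trbc1 or Trbc2, the constant segments of the alpha-beta T cell receptor, was found in 455 (99.1%) and 720 (99.4%) of the members. CD4 T cells hold these segments too, and the rule already asked for Cd3 UMIs. This share thus does not check the CD8 label. The 8 NK markers summed to 234 and 183 CPM, against 153 and 152 CPM in granzyme-low CD8 T cells, and were found in 37.3% and 33.8% of the members, while Ncr1 had 7 and 2 UMIs. Macrophages, defined below, held 3135 and 3089 CPM of the same 8 markers, so their sum is not specific to NK cells. Of 6 B cell markers 3 were detected, with 71 and 378 UMIs in 10.9% and 30.4% of the members, while Cd79a and Ms4a1 were at 0. The 4 hemoglobin genes were at 0. Macrophage RNA was present in most members. At least 1 UMI of 10 macrophage genes was found in 98.0% and 98.9% of them, and the summed level of these genes was 1934 and 1624 CPM, against 1532 and 1455 CPM in granzyme-low CD8 T cells and 45074 and 51687 CPM in macrophages, taken here as barcodes with 10 or more C1q UMIs and no Cd3 UMI. The 5 regulatory T cell markers summed to 209 and 111 CPM, against 179 and 161 CPM in granzyme-low CD8 T cells, with 25 and 24 UMIs of Foxp3 in members. They were found in 21.8% and 17.8% of the members, and 11 and 9 members held 10 or more UMIs of them. The 8 gamma-delta T cell markers summed to 115 and 66.0 CPM, against 85.7 and 76.0 CPM in granzyme-low cells, and were found in 16.3% and 11.6% of the members. The 7 dendritic cell markers stood at 51.8 and 21.7 CPM with Siglech at 0 in both libraries, and the 5 epithelial markers at 4.03 and 2.14 CPM. Neutrophil markers stood at 20.7 and 156 CPM, but 416 of the 437 UMIs in the combination library came from 1 barcode. The part of such RNA in the results below was not tested, except where a value without it is given.

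Granzyme-positive cells were the class of CD8 T cells whose share differed most between the libraries. Their share was 27.2% (25.1 to 29.4), 459 of 1685 CD8 T cells, in the MWA library and 39.4% (37.1 to 41.6), 724 of 1839, in the combination library. It thus differed by 12.1 percentage points (8.99 to 15.2). Granzyme-low cells, which passed the same limits with fewer than 2 granzyme UMIs, numbered 651 and 518 and differed by −10.5 points (−13.6 to −7.32). Among the remaining classes, the cells high in PD-1, TIM-3 and LAG-3 transcripts (checkpoint-high cells, with 2 or more UMIs of Pdcd1, Havcr2 and Lag3 summed) differed by −1.56 points (−3.75 to 0.63), cycling cells by −1.001 points (−3.47 to 1.46) and interferon-induced cells by 0.90 points (−0.63 to 2.42). Their intervals include 0. Of all passing barcodes, members made up 4.57% and 7.30%.

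The share moved with the limit on granzyme UMIs but not in its direction. With 1 granzyme UMI as the limit it was 35.7% and 47.1%, and with 4 UMIs 19.0% and 29.7%. Applied after every cell was thinned to 2000 UMIs, the rule gave 24.3% and 38.5%. Among CD8 T cells with no C1q UMI at all it was 32.1% and 42.5%. Of the settings tried, the difference was smallest among CD8 T cells without a UMI of the T cell receptor segment Trav16, described further on, where the shares were 27.4% and 35.6% and differed by 8.24 points (4.88 to 11.6). A UMI is missed in shallow cells, so some cells counted as without Trav16, here and below, may carry the segment.

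**Figure D1:**
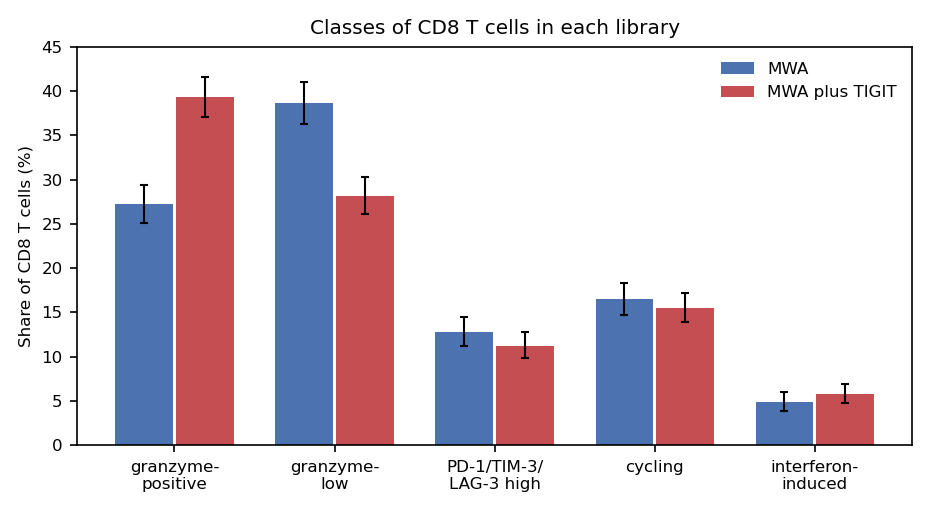
Share of each class among the CD8 T cells of the MWA library (blue) and the combination library (red), in percent, with exact 95% binomial intervals as error bars. The granzyme-positive bars stand at 27.2% and 39.4% and the granzyme-low bars at 38.6% and 28.2%, while the intervals of the other classes overlap between the libraries.

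The 3 granzymes of the rule were spread unevenly over the members. Gzma (GRCm38 chromosome 13, 113093825 to 113100981), which encodes granzyme A, had a median of 1 UMI per cell in the MWA library and 0 in the combination library, yet 139 (30.3%) and 146 (20.2%) of the members held 10 or more and the highest cells held 79 and 169. Gzmb (chromosome 14, 56258838 to 56262260), which encodes granzyme B, was more even, with a median of 3 UMIs in both libraries and highest values of 24 and 55. Gzmk (chromosome 13, 113171608 to 113225908) never exceeded 6 and 8 UMIs in a cell. Summed over the members, Gzma stood at 2426 and 1660 CPM, Gzmb at 963.5 and 1107 CPM and Gzmk at 215 and 313 CPM.

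Most members held more than 1 kind of granzyme transcript. All 3 were found in 23.7% of the members of the MWA library and 26.1% of those of the combination library, Gzmb with Gzmk but no Gzma in 15.9% and 28.7%, and Gzmb with Gzma but no Gzmk in 21.8% and 16.2%. Gzmb alone was found in 25.9% and 18.0%, Gzma alone in 5.45% and 3.04% and Gzmk alone in 3.27% and 4.01%. Without thinning the most frequent pattern was thus Gzmb alone in the MWA library and Gzmb with Gzmk in the combination library. At equal depth Gzmb alone was the most frequent in both, with 27.0% and 26.6% at 1000 UMIs per cell and 34.0% and 26.5% at 2000. At an equal depth of 1000 UMIs per cell, which left out 4 and 3 members, any Gzma UMI was found in 45.7% and 37.0%, any Gzmb UMI in 59.6% and 56.9% and any Gzmk UMI in 23.1% and 29.3%. Before thinning these shares were 54.9% and 49.3%, 87.4% and 89.0%, and 46.8% and 62.8%. In macrophages, at median depths of 8595.5 and 10544 UMIs, the thinned shares were 0.42% and 0.38% for Gzma, 0.13% and 0.24% for Gzmb and 0 of 3792 and 0 of 4205 cells for Gzmk, for which a floor of 3 counts allows shares of up to 0.0791% and 0.0713%. The thinned share differed by −8.68 points (−14.6 to −2.78) for Gzma and by 6.19 points (0.89 to 11.3) for Gzmk, whereas at 2000 UMIs per cell the differences were −2.12 points (−8.47 to 4.20) for Gzma and 16.04 points (9.92 to 21.9) for Gzmk.

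Cells with exactly 2 granzyme UMIs, 70 and 101 in number, were the lowest members, and 142 and 143 CD8 T cells with 1 UMI lay just outside. Ccl5, which encodes the T cell chemokine RANTES, stood at 6169 and 9995 CPM just outside and at 7100 and 11473 CPM just inside, against 3258 and 4443 CPM at 0 granzyme UMIs and 16507 and 17721 CPM at 6 or more. Ccr2 stood at 50.9 and 167 CPM outside and 130 and 203 CPM inside, and Ly6c2 at 1301 and 1783 CPM outside and 1168 and 2204 CPM inside. For Ccl5 the values on both sides of the limit thus lay between those at the ends of the range. Ccr2 in the MWA library stepped at the limit, on 31 UMIs just outside and 36 just inside, with 43.6 CPM at 0 granzyme UMIs and 118 CPM at 6 or more. In the combination library it stood at 61.5 CPM at 0 and 237 CPM at 6 or more, so it had already risen just outside the limit.

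Set against granzyme-low CD8 T cells of the same library, members held more RNA of Klrg1, Ccl5, Ccl3 and Ccl4 and less of Dapl1 and Ccr7. Since the rule split these cells by their own RNA, this is a description without a test. Of 8381 genes outside the rule with enough UMIs, 36 (0.43%) were at least 2-fold higher in both libraries and 29 (0.346%) at least 2-fold lower. Klrg1, a lectin receptor of terminal effector cells, stood at 3.85 CPM in granzyme-low cells and 53.0 CPM in members of the MWA library, and at 5.81 and 43.8 CPM in the combination library, log2 ratios of 3.78 and 2.92. Ccl5 rose from 3879 to 12764 CPM (1.72) and from 5838 to 15648 CPM (1.42). The chemokine genes Ccl3 and Ccl4 followed with ratios of 1.48 and 1.38 in the MWA library and 1.11 and 1.20 in the combination library.

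The 9 chemokine receptor and egress genes tested had a median of 0.39. Ccr2, a receptor for monocyte chemoattractants, stood at 45.1 CPM in granzyme-low cells and 123 in members of the MWA library and at 88.1 and 243 CPM in the combination library. Cx3cr1, the fractalkine receptor of circulating effector cells, had a ratio of 1.26 in both libraries. It stood at 26.2 and 32.8 CPM at 0 granzyme UMIs, 32.5 and 42.6 CPM at 2, 56.3 and 30.1 CPM at 3 to 5 and 83.1 and 103 CPM at 6 or more. Macrophages hold Cx3cr1 too, in 41.7% of thinned cells of the MWA library. Ccr7, the lymph node homing receptor, was lower, with ratios of −1.43 and −2.04. In the MWA library, however, members with exactly 2 granzyme UMIs held 134 CPM of Ccr7 on 37 UMIs. Cells at 0 granzyme UMIs held 93.4 CPM there and cells at 6 or more 7.55 CPM. In the combination library most Ccr7 UMIs of the members came from 1 barcode. Cxcr3, the receptor for interferon-induced chemokines, had ratios of −0.11 and 0.56. Zeb2, a transcription factor of terminal effector cells, was the 1 of 21 fate factors past 2-fold in both libraries, with ratios of 1.64 and 1.12. Entpd1, which encodes the ectonucleotidase CD39, had ratios of 1.47 and 1.54.

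All 10 tested granule genes outside the rule lay above 0 in both libraries, with a median of 0.54 for the smaller of the 2 libraries' ratios against 0.00 over all genes, although none passed 2-fold in both. Prf1, which encodes perforin, stood at 27.6 and 53.0 CPM in the MWA library and at 34.0 and 85.6 CPM in the combination library, ratios of 0.94 and 1.33. Fasl, the ligand of the death receptor FAS, had ratios of 0.94 and 1.30 and the granule membrane gene Nkg7 ratios of 0.70 and 0.93. All 12 genes of T cell receptor signalling lay above 0 as well, with a median of 0.27, whereas 4087 of all 8381 genes did. Their shift was smaller than that of the granule genes. The change of normalization given below moved each of these ratios by −0.15.

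Dapl1, a transcript of naive and memory CD8 T cells, fell from 74.5 to 7.49 CPM in the MWA library (−3.31) and from 82.7 to 5.35 CPM in the combination library (−3.95). For Tcf7, the memory factor TCF-1, the ratios were −0.88 and −1.63, for Il7r −0.87 and −1.41 and for Lef1 −0.80 and −1.005. Those 3 were past 2-fold in the combination library alone, and whether the libraries differed in this was not tested. Xcl1, a chemokine that draws cross-presenting dendritic cells, had ratios of −0.67 and −1.71. With factors of the trimmed mean of M values (TMM) in place of library totals, all ratios against granzyme-low cells shifted by −0.15 in both libraries.

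Against the cells high in PD-1, TIM-3 and LAG-3 transcripts, 215 and 206 in number, members held more RNA of S1pr1, Klf2, Ly6c2 and Cxcr3 and less of Tox, Tnfrsf9, Xcl1 and Rgs16, again as a description. Checkpoint-high cells were deeper, with medians of 5428 and 5131 UMIs against 3301 and 3431 in members. Of 7650 genes, 93 (1.22%) were at least 2-fold higher in both libraries and 160 (2.09%) at least 2-fold lower. With at most 5000 UMIs per barcode these counts were 52 and 70. S1pr1, the receptor for exit from tissue, stood at 8.75 CPM in the checkpoint-high cells and 61.0 in members of the MWA library (2.80) and at 18.7 and 69.5 CPM in the combination library (1.89). Its transcription factor Klf2 had ratios of 1.54 and 1.18. Ly6c2, a surface protein of memory and effector CD8 T cells, went from 189 to 1330 CPM (2.82) and from 626 to 2241 CPM (1.84), and Cxcr3 had ratios of 2.26 and 1.14.

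Of 14 interferon genes outside the rule 5 were higher, with a median of 0.92 for the smaller ratio against 0.00 over all genes. Isg15 had ratios of 2.63 and 1.48. Of 20 fate factors 4 were higher, Tcf7, Lef1, Klf2 and Klf3, and 3 lower. Tox, the factor of exhausted cells, fell from 126 to 20.2 CPM (−2.64) and from 77.6 to 22.5 CPM (−1.79). Ikzf2, which encodes Helios, had ratios of −1.14 and −3.06, and of the 5 regulatory T cell markers, to which it belongs, 2 were lower (median −0.40). The costimulatory receptor gene Tnfrsf9 fell from 472 to 95.02 CPM and from 329 to 66.7 CPM. Xcl1 fell from 1279 to 256 CPM and from 2151 to 93.4 CPM, and Rgs16, a regulator of G protein signalling, had ratios of −3.43 and −4.19.

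Of 12 granule genes tested outside the rule, 1 was higher and 1 lower, against 1.22% and 2.09% of all genes. Their median was 0.00 for the smaller ratio, and 5 lay above 0. Gzmf was nearly absent from members, with 1 UMI in each library against 530 and 138 UMIs in the checkpoint-high cells, and Gzmm, with ratios of 2.74 and 2.49, was higher in members but with 4 and 5 UMIs in the checkpoint-high cells. Prf1 had ratios of −1.54 and −0.79, past 2-fold in the MWA library alone. Entpd1 had ratios of 0.34 (−0.09 to 0.79) and −0.33 (−0.77 to 0.13), whose intervals include 0.

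**Figure D2:**
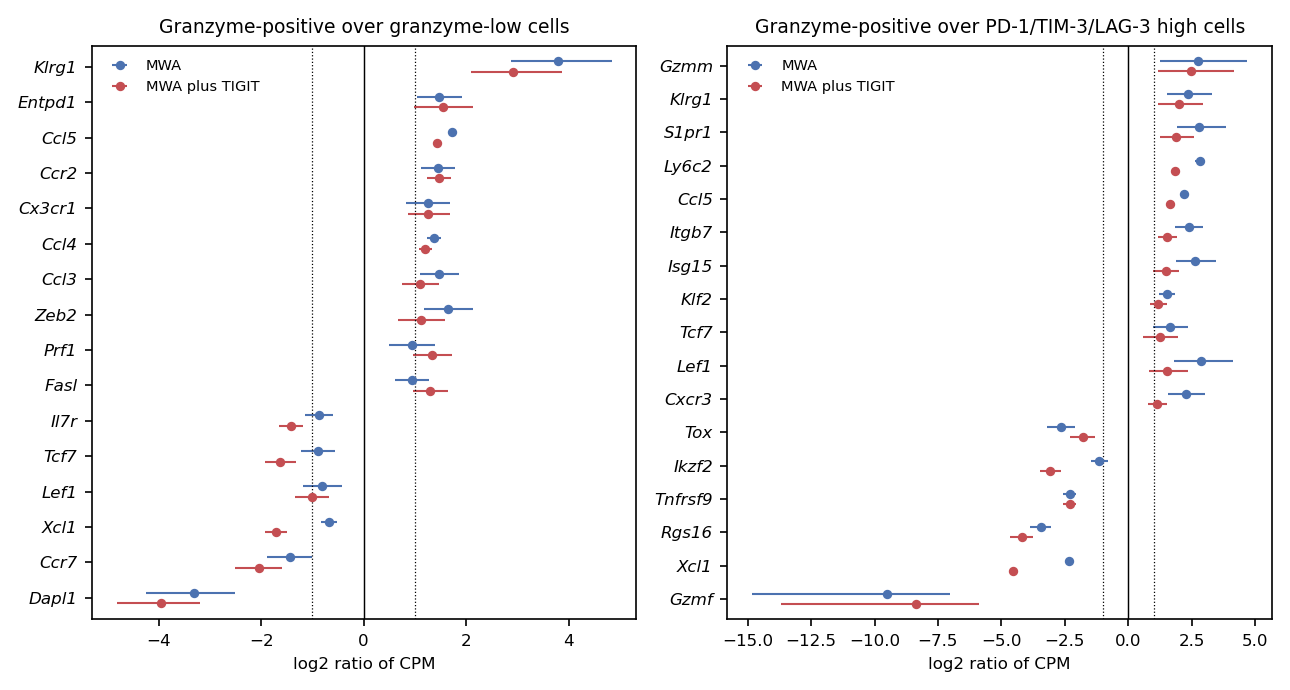
Log2 ratio of CPM in granzyme-positive cells over granzyme-low cells (left) and over cells high in PD-1, TIM-3 and LAG-3 transcripts (right), with exact conditional 95% intervals, in the MWA library (blue) and the combination library (red). Dotted lines mark 2-fold. Klrg1, Ccl5 and Ccr2 lie right of 0 in the left panel and Dapl1 and Ccr7 left of it in both libraries, and in the right panel S1pr1 and Ly6c2 lie right and Tox, Xcl1 and Gzmf left.

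Within the members, cells with Gzma held more RNA of Klrg1, Klre1, Cx3cr1 and Zeb2. This split was chosen after the values were seen. Members with 2 or more Gzma UMIs, 224 and 279 cells, were set against those with none, 207 and 367 cells, and of 6026 genes tested 16 (0.266%) were at least 2-fold higher in both libraries and 19 (0.315%) at least 2-fold lower. Klrg1 stood at 19.3 CPM without and 99.8 CPM with Gzma in the MWA library (2.37, 1.61 to 3.21) and at 11.4 and 98.1 CPM in the combination library (3.102, 2.36 to 3.92). Klre1, another lectin receptor, had ratios of 2.37 and 3.18, Cx3cr1, which macrophages also hold, 1.65 and 2.19, and Zeb2 1.89 and 1.67. Klf2, the factor that drives S1pr1, stood at 152 and 393 CPM in the MWA library and at 99.6 and 307 CPM in the combination library.

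Of 8 genes tested from the lectin receptor list, 4 passed 2-fold in both libraries and all 8 lay above 0, as did 1899 of all 6026 genes. The list had a median of 1.29 for the smaller ratio against 0.00 over all genes. It also holds Cd244a, which is not a lectin receptor gene. Of 4 NK markers tested, 1 passed 2-fold and 3 lay above 0 (median 0.57), Klrb1c being in both lists. Ctla4, an inhibitory receptor, was lower in cells with Gzma, with ratios of −1.85 and −1.70. It is also a regulatory T cell marker, and of 4 of these tested 2, Ctla4 and Foxp3, were lower (median −0.88). Tcf7 had ratios of −0.89 and −0.80 and the glycolysis gene Pgk1 −0.82 and −0.80. None of the 15 glycolysis genes passed 2-fold in both libraries, and their median was −0.30. Ly6c2, Ccr2 and Cxcr3 differed by less than 2-fold, with ratios of 0.37 and −0.12 for Ly6c2, 0.13 and −0.23 for Ccr2 and −0.14 and −0.50 for Cxcr3.

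**Figure D3:**
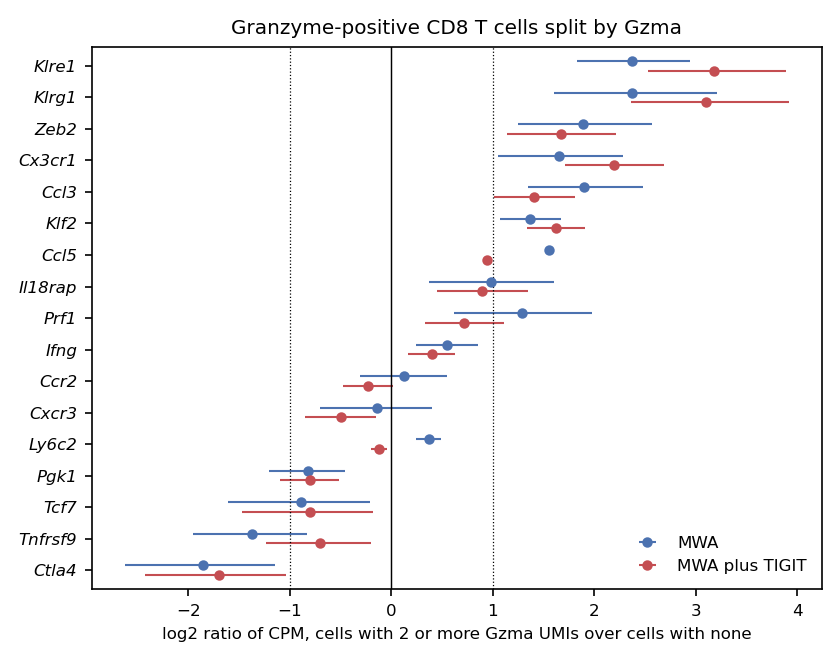
Log2 ratio of CPM in granzyme-positive cells with 2 or more Gzma UMIs over those with none, with exact conditional 95% intervals, in the MWA library (blue) and the combination library (red). Dotted lines mark 2-fold. Klre1, Klrg1, Zeb2 and Cx3cr1 lie beyond the right line in both libraries and Ctla4 beyond the left one, while Ccr2, Cxcr3 and Ly6c2 lie near 0.

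Members with Gzmb but no Gzmk, 219 and 247 cells, were also set against the few with Gzmk but no Gzmb, 33 and 58 cells. Of 4484 genes, 72 (1.61%) were at least 2-fold higher in both libraries and 13 (0.29%) lower. Those higher included Tnfrsf9 (1.91 and 3.41), Tnfrsf4 (1.69 and 1.94), Il2ra (2.90 and 3.08) and Irf8 (3.33 and 2.16) and, with them, the regulatory T cell markers, of which all 3 tested (Il2ra, Ikzf2 and Ctla4) were higher, with a median of 2.12 against 0.00 over all genes. The cells with Gzmk but no Gzmb held only 1 to 4 UMIs of each of these genes, so the sizes of the ratios are uncertain. Arg1 and Cd14, which are genes of myeloid cells, were among those lower, with ratios of −3.88 and −2.66 for Arg1.

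Between the libraries, members of the combination library held more RNA of Ccr2 and Cxcr3 and less of Klre1, Xcl1 and Ikzf2. Of 8630 genes with at least 20 UMIs in all, 802 (9.29%) were at least 1.5-fold higher in the combination library and 524 (6.07%) at least 1.5-fold lower. Among the 2390 genes that reached 50 CPM in a library the counts were 57 (2.38%) and 38 (1.59%). The median log2 ratio over all genes was 0.09. TMM factors of edgeR shifted every ratio by −0.09 and turned the counts into 577 higher and 687 lower.

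The 10 chemokine receptor and egress genes tested had a median of 0.45. Ccr2 (chromosome 9, 124101950 to 124113557) stood at 123 CPM in the MWA library and 243 CPM in the combination library, a log2 ratio of 0.98 (0.76 to 1.21). Cxcr3 (chromosome X, 101731535 to 101734269) went from 72.6 to 137 CPM (0.92, 0.62 to 1.22). Both passed 1.5-fold under every alternative tried, and without Trav16 cells their ratios were 0.75 and 0.79.

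S1pr5, also past 1.5-fold, had 8 and 24 UMIs and an interval that includes 0, and Ccr7, which was lower, had 54 UMIs in each library of which 37 came from 1 barcode of the combination library. Cxcr6, a receptor of tissue-resident T cells, had a ratio of 0.47 (0.30 to 0.65), short of 1.5-fold. At 1000 UMIs per cell, 5.93% and 12.6% of the members held a UMI of Cxcr3, against 0.16% and 0.14% of macrophages. The unthinned shares in members were 22.2% and 37.98%. Macrophages also express Ccr2, with thinned shares of 22.0% and 21.8% against 12.3% and 19.6% in members. In members with no C1q UMI, 153 and 220 cells, the ratio of Ccr2 was 1.08.

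Ly6c2 (chromosome 15, 75108158 to 75111970) was the gene of the Ly6 list that passed 1.5-fold among 3 tested, at 1330 and 2241 CPM, a ratio of 0.75 (0.68 to 0.82). A UMI of it was found in 55.6% and 76.4% of thinned members, against 1.61% and 1.88% of macrophages, and in 78.9% and 89.4% of unthinned ones. Its ratio was 0.58 without Trav16 cells and 0.43 in members with no C1q UMI, both short of 1.5-fold.

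Of 11 granule genes tested 1 was higher and 1 lower, with a median of 0.17. Prf1 (chromosome 10, 61297833 to 61304680) went from 53.0 to 85.6 CPM (0.69, 0.34 to 1.05), and a UMI of it was found in 15.9% and 25.6% of the members, or 6.37% and 10.1% after thinning, against 0 of 3792 and 0 of 4205 thinned macrophages, for which a floor of 3 counts allows up to 0.0791% and 0.0713%. The ratio of Prf1 was 0.22 when the rule was applied after thinning to 2000 UMIs and 0.30 in members with no C1q UMI. Gzmc fell from 213 to 7 UMIs, but 200 of the 213 came from 1 barcode. Nkg7 stood at 2339 and 2951 CPM (0.34, 0.28 to 0.39). The granule genes as a group thus lay close to the median of all genes.

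Among 10 cytokine and chemokine genes 1 was higher and 1 lower, with a median of 0.11. Xcl1 (chromosome 1, 164931644 to 164935527) went from 256 to 93.4 CPM, a ratio of −1.45 (−1.68 to −1.23), and stayed past 1.5-fold under every alternative tried. Its UMIs were found in 19.2% and 10.4% of the members, or 9.01% and 3.61% after thinning, against 0.42% and 0.19% of thinned macrophages. Il2, the T cell growth factor, had 9 and 32 UMIs, 14 of them from 1 barcode. Tgfb1 had a ratio of −0.56 (−0.79 to −0.32). Ifng, which encodes interferon-γ, stood at 224 and 251 CPM (0.17, −0.02 to 0.35), Ccl5 had a ratio of 0.29, and Ccl3 and Ccl4 ratios of 0.01 and −0.01.

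Of 10 genes of the lectin receptor list 5 were lower and 0 higher, with a median of −0.48. Klre1 (chromosome 6, 129577905 to 129585827) went from 104 to 56.0 CPM (−0.89, −1.21 to −0.57). The other 4, Klra7, Klra9, Klrb1c and the non-lectin gene Cd244a, had at most 46 UMIs in a library. Klrg1 had a ratio of −0.27 (−0.67 to 0.13) and Klrc1, which encodes the inhibitory receptor subunit NKG2A, one of 0.29 (0.09 to 0.49). Without Trav16 cells the ratio of Klre1 was −0.42 and the median of the list −0.27. Summed NK markers, which macrophages also held, stood at 234 and 183 CPM beside these values.

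The fate transcription factors moved both ways. Of 21 tested, 3 were higher and 6 lower, with a median of −0.08. Id2, a factor of effector differentiation, went from 580 to 870 CPM (0.59, 0.48 to 0.69), Eomes from 36.3 to 55.6 CPM (0.62, 0.19 to 1.06) and Batf from 24.8 to 38.9 CPM (0.65, 0.13 to 1.19). All 3 were under 1.5-fold without Trav16 cells. Ikzf2 (chromosome 1, 69531214 to 69687245) fell from 70.3 to 22.8 CPM (−1.62, −2.08 to −1.17) and Irf8 from 54.7 to 29.6 CPM (−0.89, −1.33 to −0.45). Id3, a factor of memory cells, had 40 and 21 UMIs (−1.62, −2.46 to −0.83), and Bach2, Myb and Irf4 passed 1.5-fold downward on at most 33 UMIs in a library, with intervals that include 0. Tbx21, Tcf7 and Tox, with ratios of 0.19, −0.30 and 0.16, had intervals that include 0.

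Ikzf2 is also a regulatory T cell gene, and in members with no C1q UMI its ratio was −0.14. Of 5 regulatory T cell markers 4 were lower, with a median of −0.75, and 3 of the 5, Ikzf2, Ctla4 and Il2ra, belong to other lists given here. Foxp3 itself had 25 and 24 UMIs. Of 10 inhibitory receptors outside the rule 2 were lower and 0 higher (median −0.18), Entpd1 from 69.7 to 44.2 CPM (−0.66, −1.03 to −0.28) and Cd200r1 on 18 and 15 UMIs. Tigit, the target of the antibody, had 9 and 15 UMIs, 5.18 and 5.35 CPM, and its ratio of 0.05 (−1.24 to 1.42) left any difference undetectable at this depth. Of the costimulatory receptors Tnfrsf4, which encodes OX40, was lower (65.7 to 33.9 CPM, −0.95) and Slamf6 higher (16 and 49 UMIs), with a median of 0.23 over 10 genes. The ratio of Tnfrsf4 was −0.47 without Trav16 cells and 0.71, the opposite direction, in members with no C1q UMI.

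The counts past 1.5-fold in the other lists stand against 9.29% of all genes higher and 6.07% lower. Adhesion genes had 0 of 12 higher and 3 lower (median −0.07), among them Itgae, which encodes the integrin CD103, at 39.7 and 17.5 CPM (−1.19, −1.75 to −0.64). Cytokine receptor and survival genes had 2 of 16 higher and 3 lower (median −0.17), immediate early genes 0 of 16 higher and 1 lower (median −0.16), interferon genes 1 of 16 higher (median 0.14), cell cycle genes 1 of 14 higher (median 0.25) and glycolysis genes 1 of 15 lower (median 0.09). None of 12 T cell receptor signalling genes (median 0.19) and 15 nuclear genes of oxidative phosphorylation (median 0.09) passed 1.5-fold. Il12rb1 and Tgfbr1 were the cytokine receptor genes that were higher, on 16 UMIs each in the MWA library, and Il2ra, Il12rb2 and the apoptosis gene Bcl2l11 were lower, with ratios of −0.74, −0.69 and −0.69. Rtp4 was the interferon gene (0.60) and Tk1 the cell cycle gene (12 and 33 UMIs) that were higher. Fosb was the immediate early gene that fell, from 138 to 83.1 CPM, and Hk2 the glycolysis gene, from 32.8 to 17.8 CPM.

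Among genes that reached 50 CPM in a library, with T cell receptor variable segments left out, Igkc, the constant segment of the immunoglobulin kappa chain, had the highest ratio. It went from 8 UMIs in 7 cells to 224 UMIs in 140 cells, a ratio of 4.12 (3.11 to 5.35), while macrophages held 1.91 and 7.49 CPM of it and members 4.61 and 79.9 CPM. The 6 B cell markers, Igkc among them, summed to 40.9 and 135 CPM in members. Capg, an actin-capping protein gene, went from 185 to 353 CPM (0.93, 0.75 to 1.11), and Gstp1, a glutathione transferase gene, from 139 to 66.0 CPM (−1.07, −1.36 to −0.79). S100a8 among the highest, and Ccl6, Fn1 and Gzmc among the lowest, owed 199 of 208, 85 of 93, 136 of 216 and 200 of 213 UMIs to a single barcode. Without the top barcode of each library, the ratio of S100a8 was 0.48, that of Fn1 −0.17, that of Ccl6 0.89 and that of Gzmc −1.81 on few remaining UMIs. The values of these 4 genes thus rested mainly on single barcodes.

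**Figure D4:**
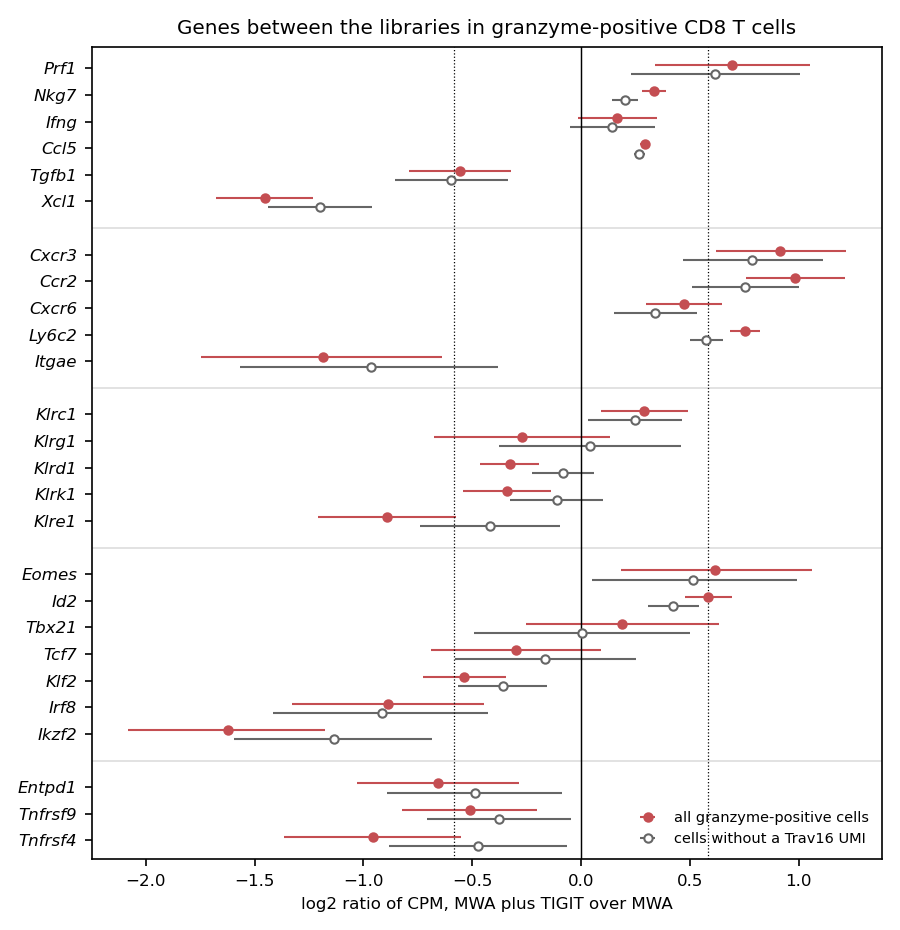
Log2 ratio of CPM in the combination library over the MWA library for selected genes in all granzyme-positive cells (filled red) and in those without a Trav16 UMI (open grey), with exact conditional 95% intervals. Dotted lines mark 1.5-fold. Cxcr3 and Ccr2 lie right of the right line and Xcl1 and Ikzf2 left of the left line in both sets, while Klre1 moves from −0.89 to −0.42.

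Members of the combination library often held the T cell receptor segment Trav16, which was rare in the MWA library. It is a variable gene of the alpha chain (GRCm38 chromosome 14, 53743104 to 53743705), joined into the receptor of a T cell clone by rearrangement. A Trav16 UMI was found in 6 of 459 members of the MWA library (1.31%, 0.48 to 2.82) and in 229 of 724 members of the combination library (31.6%, 28.3 to 35.2). After thinning to 1000 UMIs the shares were 0.22% and 13.0%, and that of macrophages of the combination library was 0.0476%. In the same library it was found in 11.2% of granzyme-low, 15.5% of checkpoint-high, 32.3% of cycling and 35.8% of interferon-induced CD8 T cells, and in no class of the MWA library in more than 2.88%.

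Trav16 has near-identical copies in the alpha chain locus, and reads can be split between them. The stretches below are shown for that reason. They are 300 bases of the variable exon from the GRCm38 genome, 5′ to 3′ on the plus strand, at chr14:53743405-53743704 for Trav16, chr14:53351321-53351620 for Trav16n and chr14:53047521-53047820 for Trav16d-dv11, and capitals mark the 6 positions at which any of the 3 differ.
Trav16: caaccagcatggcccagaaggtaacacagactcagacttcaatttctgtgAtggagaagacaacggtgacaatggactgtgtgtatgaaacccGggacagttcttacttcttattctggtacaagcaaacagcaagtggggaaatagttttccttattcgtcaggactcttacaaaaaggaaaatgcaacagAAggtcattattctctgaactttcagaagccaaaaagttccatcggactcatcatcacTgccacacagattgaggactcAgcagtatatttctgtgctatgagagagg
Trav16n: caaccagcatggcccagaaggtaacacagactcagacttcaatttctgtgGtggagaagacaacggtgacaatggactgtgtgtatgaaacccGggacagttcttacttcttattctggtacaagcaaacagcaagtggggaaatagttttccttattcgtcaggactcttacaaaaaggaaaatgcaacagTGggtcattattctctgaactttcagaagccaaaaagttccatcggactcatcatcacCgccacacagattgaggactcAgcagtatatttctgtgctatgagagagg
Trav16d-dv11: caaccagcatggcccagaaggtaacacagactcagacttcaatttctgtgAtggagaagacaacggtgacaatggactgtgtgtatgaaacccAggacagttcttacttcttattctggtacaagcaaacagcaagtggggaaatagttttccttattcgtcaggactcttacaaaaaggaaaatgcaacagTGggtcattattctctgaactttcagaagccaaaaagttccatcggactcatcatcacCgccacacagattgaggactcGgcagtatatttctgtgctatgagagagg

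Trav16n differs from Trav16 at 4 of these positions (98.7% identity) and Trav16d-dv11 at 5 (98.3%). A Trav16n UMI was found in 4.58% and 3.04% of the members and in 17.2% and 3.88% of the checkpoint-high cells. Trav16n thus did not show the difference seen for Trav16 in members. With identity this high, the assignment of reads to 1 copy is uncertain. Trav9-2 (chromosome 14, 53590857 to 53591514), another variable segment, went from 0 to 46 UMIs in 43 members, at least 9.49-fold higher against a floor of 3 counts in the MWA library.

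The 229 members with a Trav16 UMI were set against the other 495 of the same library, a split chosen after the values were seen. Since a UMI is missed in shallow cells, some of the 495 may carry the segment too. Of 7595 genes tested, 633 (8.33%) were at least 1.5-fold higher in the cells with Trav16 and 679 (8.94%) lower. The beta chain moved with the alpha segment. Trbc1, 1 of 2 beta chain constant genes (chromosome 6, 41538218 to 41539881), stood at 520 CPM without and 90.9 CPM with Trav16 (−2.52, −2.87 to −2.18), while the other constant gene, Trbc2, stood at 1230 and 1270 CPM (0.05). Prss2, a trypsinogen gene on the same chromosome (41521787 to 41525079) before Trbc1, had 92 UMIs without and 0 with Trav16, at least 13.5-fold lower against a floor of 3 counts. It was named after its values were seen. Cd8a and Cd8b1 differed by −0.04 and 0.01.

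The cells with Trav16 were low in Gzma and in 6 genes of the lectin receptor list. Gzma stood at 2118 CPM without and 619 CPM with Trav16 (−1.78, −1.91 to −1.64), while Gzmb had a ratio of 0.21 and Gzmk of 0.12. Of 9 genes tested from that list 6 were lower and 0 higher, with a median of −1.04 against 0.03 over all genes. Of 4 NK markers tested 3 were lower (median −1.25). Klre1 stood at 77.0 and 8.16 CPM (−3.24), Klrg1 had a ratio of −1.46 and Klrd1 one of −1.04. Zeb2 fell from 68.3 to 23.3 CPM (−1.55) and Xcl1 had a ratio of −1.17. Ikzf2 had 63 UMIs without and 1 with Trav16, and Tnfrsf4 93 and 2. Of 4 regulatory T cell markers tested, Ikzf2 among them, 3 were lower (median −3.17), and Foxp3 had 24 UMIs without and 0 with Trav16. The part of NK or regulatory T cell RNA in these differences was not tested.

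Among the 10 chemokine receptor and egress genes, with a median of 0.18, Ccr2 was higher in the cells with Trav16 (207 and 326 CPM, 0.66), as was Ccr7, for which 37 of 42 UMIs came from 1 barcode. Ly6c2 (0.57) and Nkg7 (0.41) lay above 0 but short of 1.5-fold. Capg stood at 287 and 503 CPM (0.81). Batf had a ratio of 0.73 and Id2 one of 0.46. Without the cells holding Trav16, the between-library counts were 691 genes higher (8.46%) and 517 lower (6.33%) of 8170, and Gzma, a gene of the rule, had a ratio of −0.19 in place of −0.55.

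**Figure D5:**
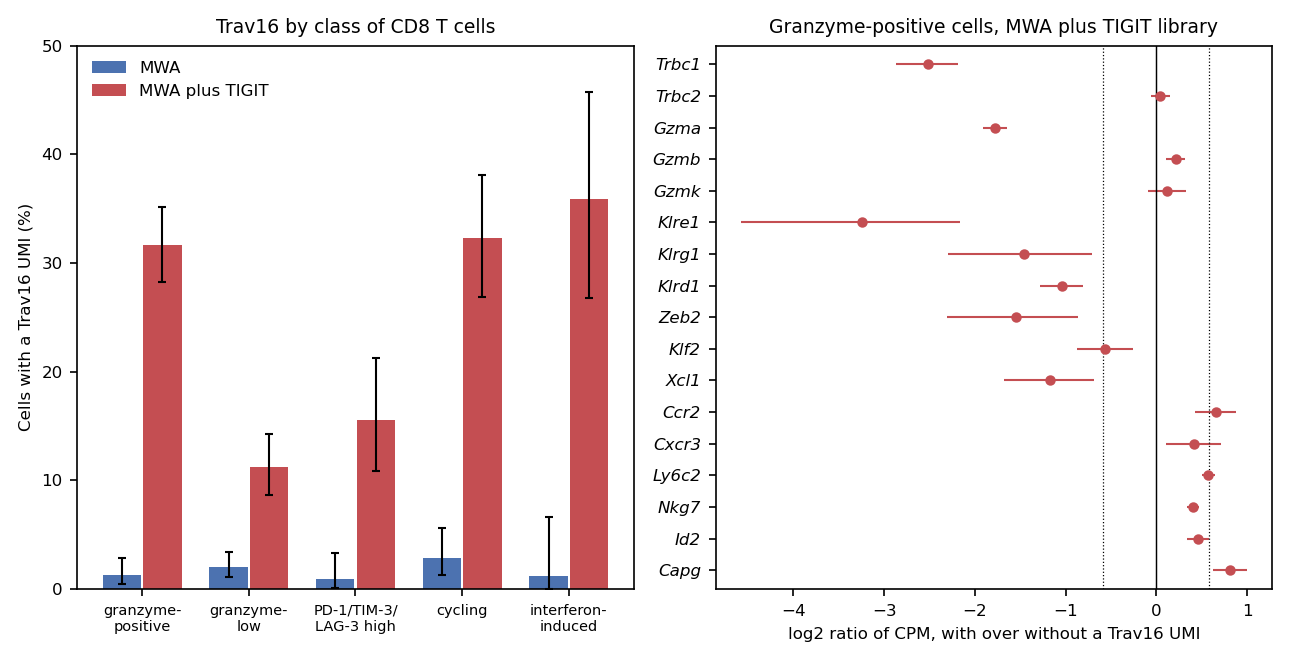
Left, share of cells with a Trav16 UMI in each class of CD8 T cells in the MWA library (blue) and the combination library (red), in percent, with exact 95% binomial intervals. Right, log2 ratio of CPM in granzyme-positive cells of the combination library with over without a Trav16 UMI, with exact conditional 95% intervals and dotted lines at 1.5-fold. The red bar of granzyme-positive cells stands at 31.6% against 1.31% for the blue one, and Trbc1, Gzma and the lectin receptors lie left of 0 while Trbc2 lies at 0.05.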

How the data were processed

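CD45+ cells of the non-ablated tumor were measured in 1 library per group, and the labels gave the groups. The authors deposited UMI counts of 32285 genes per barcode, not normalized. The labels name Cell Ranger 6.1.1 and the file headers 4.0.0, with mm10, the same assembly as GRCm38. The deposited gene and barcode lists, columns of the unit "other", gave names and identifiers, and the GENCODE annotation of GRCm38 gave coordinates. No column of an unmapped sample was found. The authors' cell annotation was not used. Some genes of the lists are not reported here, though they count in the sums, medians and numbers of genes.

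Members were chosen by the count rule given in the text. The members and the gene lists were chosen with earlier results of these data known. Other CD8 T cell classes followed the same limits in the order cycling, interferon-induced, checkpoint-high, granzyme-positive or granzyme-low. Doublets, called by simulated doublets (a share of 0.25, 20 principal components, 2000 variable genes, 0.8% per 1000 barcodes), were kept and left out only as an alternative. UMIs were summed per class and library and divided by the class total (CPM). Genes with at least 20 UMIs in all were compared, with 1.5-fold between libraries and 2-fold in both libraries between classes as limits of size. The median of a list over both libraries used the smaller of the 2 ratios, or 0 where their signs differed. With 1 library per group no test was run. A count of 0 was set against 3 counts. Before the share of cells holding a gene was compared, each cell was thinned to 1000 UMIs.

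Genes named are those of the lists and the 10 highest and 10 lowest of each comparison that reached 50 CPM in a library, without mitochondrial, ribosomal protein, Gm, Rik and T cell receptor variable genes, the last given apart. Lectin receptors, histone genes and receptor segments have near-identical copies, so their counts are uncertain. Interval code was tested on simulated data. Python 3.11.15, numpy 2.4.6, scipy 1.17.1, pandas 2.3.3, scikit-learn 1.9.0, matplotlib 3.10.9, R 4.3.3 and edgeR 4.0.16 (TMM factors only) were used.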

Additional observations from a re-analysis of the deposited data

Results flagged for a closer look

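Fn1, which encodes fibronectin, and the chemokine gene Ccl6, both genes of macrophages, differed in direction between the libraries when members were set against the CD8 T cells high in PD-1, TIM-3 and LAG-3 transcripts. In the MWA plus TIGIT group the log2 ratio was −1.37 for Fn1 and −1.65 for Ccl6, whereas in the MWA group it was 2.16 and 3.75. The difference between the libraries was not tested. In the MWA group 136 of the 216 Fn1 UMIs and 85 of the 93 Ccl6 UMIs of the members came from a single barcode.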

How the results depend on the processing

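The share difference of 12.1 points moved only to 8.24 points, without Trav16 cells, beyond its counting interval. Counts against granzyme-low cells were 55 genes higher with 1 granzyme UMI as the limit, 16 higher and 50 lower when the rule followed thinning to 2000 UMIs, 14 lower in cells with no C1q UMI, 45 lower with TMM factors, 47 lower with the mean of each cell's CPM, and 404 higher and 456 lower with no filter on low counts. Against checkpoint-high cells they were 52 higher and 70 lower with at most 5000 UMIs per barcode, 104 lower after thinning, 61 and 57 with no C1q UMI, and 648 and 667 with no filter. Between the libraries 2808 genes were higher and 2705 lower with no filter. The difference in any Gzma was −2.12 points at 2000 UMIs, and that in any Gzmk was 16.04 points there and 16.004 points unthinned. Of 3100 ratios of named genes between libraries under an alternative, 2804 stayed in the reported interval, 270 moved and 26 reversed. Reversed ratios were, with 4 granzyme UMIs as the limit, 1.44 for Ccr7, and with at most 5000 UMIs −2.21 for S100a8, −2.12 for S100a9, −0.10 for Tgfbr1, 0.62 for Myb, 0.64 for Ccl6, −0.018 for Tk1, 0.012 for Trdc and 1.01 for Gzmc. After thinning to 2000 UMIs they were −0.13 for Pdcd1, −2.14 for S100a8, −2.91 for S100a9, 0.18 for Izumo1r, 1.502 for Myb, 0.67 for Ccl6, −0.56 for Top2a, 0.38 for Ccr7, 0.14 for Irf4 and 0.39 for Foxp3. In cells with no C1q UMI they were 0.054 for Itgav, 0.71 for Tnfrsf4, 0.36 for Izumo1r, 1.36 for Ccl6 and 1.68 for Foxp3, and for Ccl6 0.58 without doublets and 0.89 without the top barcode of each gene, a setting chosen after seeing the data. The cause of these changes was not tested. No paired analysis was possible because each group was 1 library. With no replicate, treatment and library cannot be told apart.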
